A study of Ambystoma mexicanum with 2 samples.

Results

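The microRNAs miR-183, miR-96 and miR-182 were examined in small RNA libraries of the Mexican axolotl, a salamander that regrows its tail after amputation. They were taken as every mirBase entry, of any species, whose family label in the deposited table is 1 of these 3 names with at most 1 letter added. This gave 6 of the 4563 known labels, namely miR-183, miR-182, miR-182c, miR-96, miR-96a and miR-96b, and 96 of the 9277 known entries. The control library was made from uninjured tail tissue that had never regenerated, and the blastema library from the injured tail 3 days after amputation, by which time a mound of undifferentiated cells covers the stump. For these samples, tail tissue of 20 mature animals was pooled, and each condition had 1 library, so replicate error is unknown and the condition was not tested. Per the methods of the study, amputation was done under anesthesia with p-amino benzocaine. All intervals below cover counting error only. They treat reads as independent, and since copies made by PCR are not independent molecules, they may be too narrow even for that. How a read that matches more than 1 entry was counted is not given in the sources used here. If it was counted in each entry, sums over entries repeat it and their intervals are too narrow.

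MicroRNAs are short RNAs that pair with messenger RNAs through a seed near their 5′ end and lower the output of their targets. In vertebrates miR-183, miR-96 and miR-182 lie next to each other in the genome and are made from 1 shared transcript, and they are best known from sensory cells, such as hair cells of the ear and lateral line, photoreceptors and sensory neurons of the dorsal root ganglia. In mice and humans, mutations in the seed of miR-96 cause hearing loss. Each hairpin can yield a product from its 5′ arm (5p) and another from its 3′ arm (3p), and for these microRNAs the 5p product is the usual, more abundant one. Sequences and genome positions of the members were not analysed here.

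The deposited control counts summed to 12613931 reads and the blastema counts to 9952885 reads. A share is given as reads per 1000000 of this total (RPM), with the Wilson 95% interval. Log2 ratios set the blastema share over the control share after 0.5 read was added to every count. They depend strongly on the total, because muscle microRNAs (miR-1 and miR-206, with miR-499, miR-133 and miR-208) took up 67.4% of all control reads but 14.3% in the blastema. The median log2 ratio of the 3090 known labels with 10 or more reads in the libraries together was 2.26. Of these labels, 84.3% were 2-fold or more higher in the blastema by share and 1.84% were 2-fold or more lower. The usual label was thus higher in the blastema, and each member is also given relative to this median, which does not depend on the total.

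The members were rare in both libraries. Together they had 593 control reads, 47.0 RPM (43.4 to 51.0), and 1959 blastema reads, 196.8 RPM (188.3 to 205.7). The share was 4.18-fold larger in the blastema, a log2 ratio of 2.06 (1.93 to 2.20). This was close to the median of all known labels, from which it differed by -0.19, and 41.6% of the labels had a lower ratio. When the libraries were scaled with edgeR's TMM factors, the log2 ratio of the sum was -0.072 (-0.20 to 0.061), so its direction depended on the scaling. The sum hid a difference between the members, because miR-183 lay below the median while miR-182 and miR-96 lay above it.

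miR-183 had the most counted reads of the members in both libraries. It had 440 control reads, 34.9 RPM (31.8 to 38.3), and 970 blastema reads, 97.5 RPM (91.5 to 103.8). Its share was 2.79-fold larger in the blastema, a log2 ratio of 1.48 (1.32 to 1.64), but this reversed to -0.66 with TMM and was 0.087 (-0.075 to 0.25) when the muscle microRNAs were left out of the total. Relative to the median of the known labels it was -0.77, and 25.8% of them had a lower ratio. Of its 40 entries, 2 had no control read and were listed only through their blastema reads. By reads, miR-183 ranked 149 among the known labels of the control and 176 among those of the blastema.

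miR-182 had 129 control reads, 10.2 RPM (8.61 to 12.2), and 767 blastema reads, 77.1 RPM (71.8 to 82.7). This was a 7.51-fold larger share in the blastema, with a log2 ratio of 2.91 (2.64 to 3.18). The ratio lay 0.65 above the median, and 69.1% of the labels were lower. It stayed above 0 under each of the 4 other scalings, with a lowest value of 0.77 for TMM. Some entries of miR-182 also had no control read and were listed only through their blastema reads, which adds to the ratio. The rank of miR-182 went from 229 in the control to 194 in the blastema, opposite to that of miR-183.

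miR-96, the member tied to inherited deafness, had the fewest counted reads of the 3 microRNAs. There were 22 control reads, 1.74 RPM (1.15 to 2.64), and 178 blastema reads, 17.9 RPM (15.4 to 20.7). The log2 ratio was 3.33 (2.70 to 3.96), a 10.1-fold larger share in the blastema, and the small control count made the interval wide. Its entries had at most 3 control reads each, and some had 0. No listed entry had fewer than 6 reads over both libraries, so all were listed only with their blastema reads, which adds to this ratio. It was 1.07 above the median, 76.4% of the labels were lower, and TMM gave the lowest value of the scalings tried, 1.19. It ranked 515 by control reads and 338 by blastema reads.

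**Figure D1:**
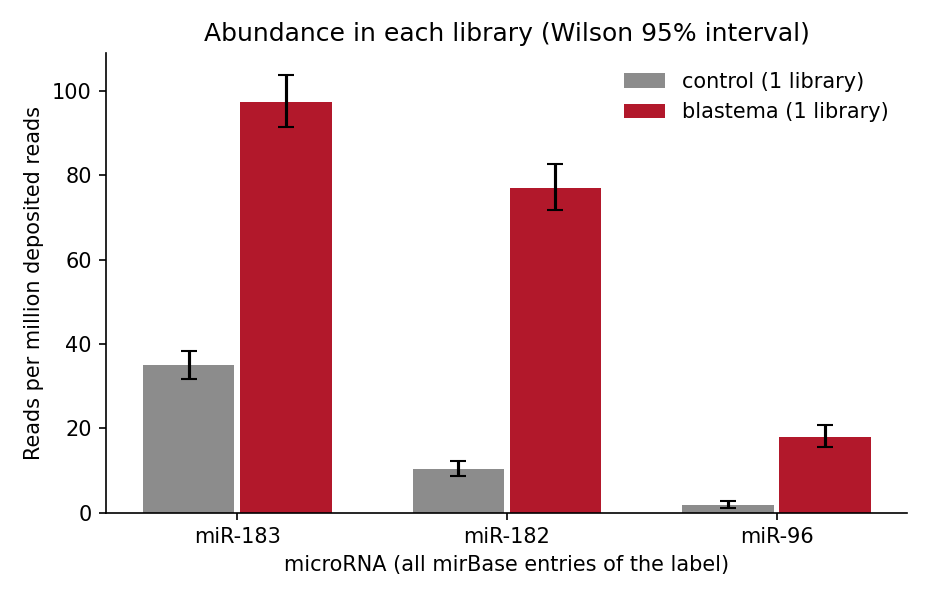
Reads per 1000000 deposited reads (vertical axis) of miR-183, miR-182 and miR-96 in the control library (grey bars) and the blastema library (red bars), with Wilson 95% intervals of the counting error. miR-183 went from 34.9 to 97.5, miR-182 from 10.2 to 77.1 and miR-96 from 1.74 to 17.9 on this scale, while with TMM scaling the direction of miR-183 reversed.

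The labels with a letter added little. miR-182c, from entries of 2 species of lancelet, had 2 control reads and 21 blastema reads, a log2 ratio of 3.45 (1.56 to 5.34). miR-96a had 0 control reads, for which the Wilson interval reaches 0.305 RPM, and 17 blastema reads. Its share was 7.18-fold higher in the blastema when 3 control counts were put in place of the 0. miR-96b had 0 control reads and 6 blastema reads, 2.53-fold higher by the same floor of 3 counts in the library. These folds leave out the counting error of the blastema reads, and the log2 interval of miR-96b (-0.11 to 8.19) includes 0. All entries of miR-96a and miR-96b were listed only through their blastema reads. With so few reads the ratios of the labels with a letter have wide intervals. Below, their reads are counted with the member of the same number, which gives 201 blastema reads for miR-96, and 131 control and 788 blastema reads for miR-182.

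**Figure D2:**
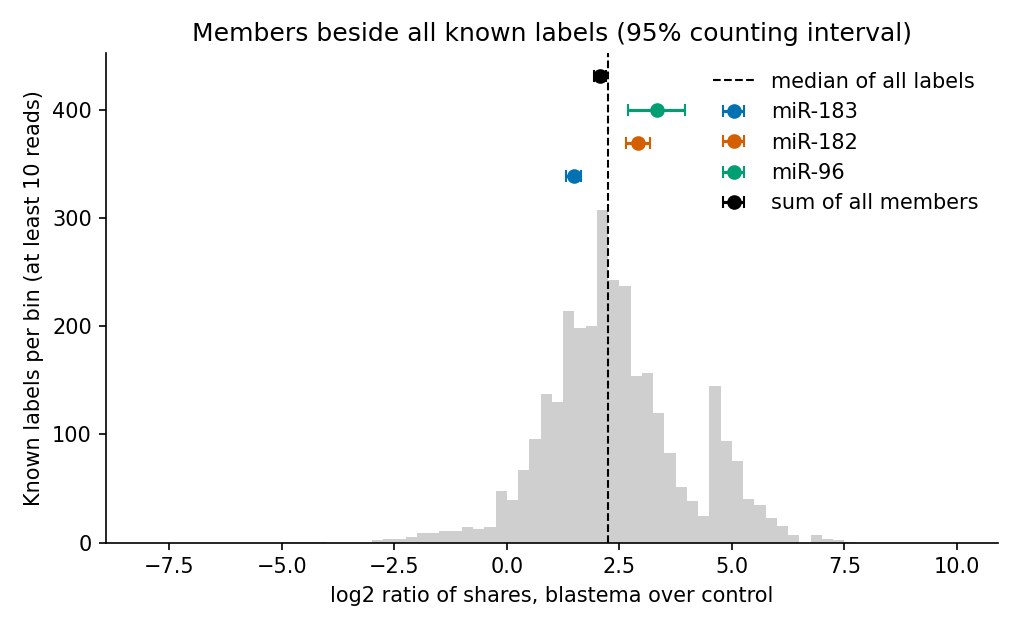
Histogram of the log2 ratio of shares, blastema over control (horizontal axis), for the 3090 known labels with at least 10 reads, with points and 95% counting intervals for the members placed above it at arbitrary heights. miR-183 (1.48) lies left of the dashed median of 2.26 and miR-182 (2.91) and miR-96 (3.33) lie right of it, and with TMM, which moves every label alike, only miR-183 and the sum of the members (2.06) fall below 0 among these points.

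Of the 6 labels, 5 had at least 10 reads and miR-96b did not. On the deposited total these 5 were at least 2-fold higher in the blastema, but against a background of 84.3% of the labels this is not a result about the members. With TMM, 27% of all known labels were at least 2-fold higher. The values of miR-96 (1.19, 0.56 to 1.83) and miR-182c (1.31, -0.58 to 3.20) were past 2-fold. Both intervals reach below 2-fold, and that of miR-182c includes 0. The value of miR-182 (0.77, 0.50 to 1.04) was under 2-fold, with an interval that reaches it, and miR-183 (-0.66, -0.82 to -0.49) was below 0. For miR-96a and miR-96b the value with TMM is not read, since they had no control read.

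Differences between the members do not depend on the total, because it cancels in them. The 3 pairs of members were compared. The log2 ratio of miR-182 exceeded that of miR-183 by 1.44 (1.13 to 1.76). The excess of miR-96 over miR-183 was 2.02 (1.37 to 2.67). Both differences were larger than the counting error. Between miR-96 and miR-182 the difference was 0.58, with an interval from -0.10 to 1.26 that includes 0, so these were not distinguishable at this depth. With the entries that had a control read only, an alternative chosen after seeing the data, the differences were 1.37 (1.06 to 1.68), 1.50 (0.84 to 2.17) and 0.13 (-0.56 to 0.83). No listed entry had fewer than 6 reads over both libraries, so one with fewer than 6 control reads was listed only with its blastema reads. Entries of miR-96 had at most 3 control reads, and medians were 3 for miR-182 and 10.5 for miR-183. This selection thus falls unequally on the members, the restriction does not remove it, and its size was not tested. With 1 library per condition the first 2 differences compare these libraries and have no replicate check.

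The make-up of the member reads shifted accordingly. miR-183 held 74.2% (70.5 to 77.6) of the member reads of the control library and 49.5% (47.3 to 51.7) of those of the blastema library. The part of miR-182 was 22.1% (18.9 to 25.6) and 40.2% (38.1 to 42.4). miR-96 made up 3.71% (2.46 to 5.55) and 10.3% (8.99 to 11.7). For each member the intervals of the libraries do not overlap. However, these sums include entries with no control read, which were listed only through their blastema reads. They were 2 of the 40 entries of miR-183, 5 of the 34 of miR-182 and 8 of the 22 of miR-96. Entries with fewer than 6 control reads, among them all 22 of miR-96, also needed their blastema reads to be listed. The intervals do not cover this, and the make-up without such entries was not computed. The differences between the members without the entries that had no control read are given above. There were 3.36 reads of miR-183 for each read of miR-182 in the control, against 1.23 in the blastema. The counting of reads with more than 1 matching entry is not given in the sources used here. Reads of similar microRNAs may therefore be divided unequally between labels or counted more than once. Levels of different members are thus less certain than the level of 1 member in both libraries. In addition, the study mapped only reads within a narrow range of lengths, so these counts leave out reads of other lengths. If the members differ in length, this falls unequally on them. Their order and parts by counted reads may then not be those in the tissue.

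**Figure D3:**
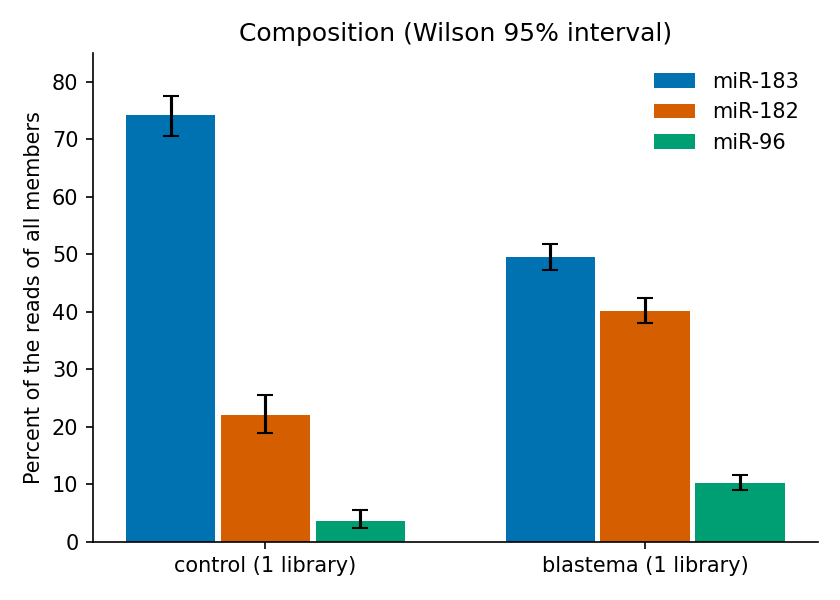
Percent of all member reads (vertical axis) that belonged to miR-183, miR-182 and miR-96, labels with a letter included, in the control library (593 reads) and the blastema library (1959 reads), with Wilson 95% intervals. The bar of miR-183 falls from 74.2% to 49.5% between the libraries and those of miR-182 and miR-96 go from 22.1% to 40.2% and from 3.71% to 10.3%.

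The reads of a member were spread over many species entries of mirBase. miR-183 had 40 entries, with a median of 10.5 control reads (0 to 40) and 22 blastema reads (6 to 68). The 34 entries of miR-182 had a median of 3 control reads (0 to 12) and 16 blastema reads (6 to 68), and the 22 entries of miR-96 had a median of 1 control read (0 to 3) and 8.5 blastema reads (5 to 24). No entry with fewer than 6 reads over both libraries is listed, so the sums leave out any reads of rarer entries.

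On the deposited total, 96 of the 96 entries had their higher share in the blastema library, by at least 2-fold for 86, and with an interval above 0 for 73. Among all 9277 known entries these figures were 90.6%, 79.3% and 63.5%, so a higher share was common to most entries. No control read was found for 2 of the 40 entries of miR-183, 5 of the 34 of miR-182 and 8 of the 22 of miR-96. Such an entry was listed only through its blastema reads and had to have a high ratio, so the ratios of single entries are not set against each other. The entry with the most reads, hhi-miR-183 of the Atlantic halibut, had 40 control and 68 blastema reads. The miR-182 entry of the same fish, hhi-miR-182, had 12 control and 68 blastema reads and was chosen after its values were seen. These entries thus had equal counts in the blastema and differed in the control.

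**Figure D4:**
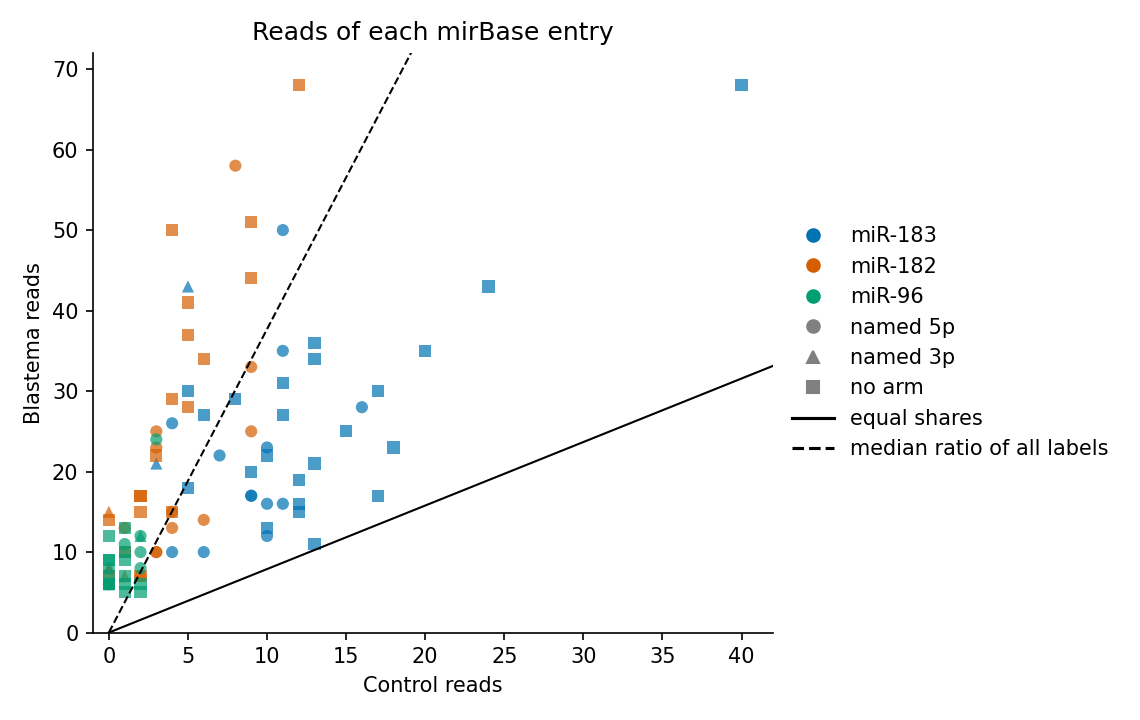
Control reads (horizontal axis) and blastema reads (vertical axis) of each of the 96 entries, coloured by member, with circles for entries named 5p, triangles for 3p and squares for entries with no arm in the name. The solid line marks equal shares on the deposited total and the dashed line the median ratio of the known labels. All points lie above the solid line, and most of the 40 miR-183 points lie below the dashed line, as the sum of miR-183 does, which falls below equal shares with TMM.

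The arm was given in the name of 40 entries and was missing for 56. The 5p entries of miR-183 had 118 control and 282 blastema reads, a log2 ratio of 1.60 (1.29 to 1.90), and the 23 entries with no arm had 314 and 610 reads, a log2 ratio of 1.30 (1.10 to 1.50). With TMM these reversed to -0.54 and -0.84, and without the muscle microRNAs the ratio of the entries with no arm was -0.10 (-0.29 to 0.10). The 4 entries of miR-183-3p had 8 control and 78 blastema reads, a log2 ratio of 3.55 (2.53 to 4.57), which stayed above 0 with TMM at 1.41. The 3p arm of miR-183 thus had a larger ratio than its 5p arm, by 1.95 (0.89 to 3.02), more than the counting error. Without the 2 of its 3p entries that had no control read, the difference was 1.67 (0.59 to 2.75). However, each 3p entry of miR-183 had at most 5 control reads. No listed entry had fewer than 6 reads over both libraries, so these 4 were all listed only with their blastema reads. The 5p entries had a median of 10 control reads. Leaving out 2 of the 3p entries does not remove this selection, and its part in the difference was not tested.

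For miR-182, the 5p entries had 55 control and 246 blastema reads (log2 ratio 2.49, 2.07 to 2.91), and the 3p entries had 1 and 30 reads (4.69, 2.32 to 7.05). Here the difference of 3p minus 5p was 2.19, and its interval of -0.21 to 4.60 includes 0. With entries that had a control read only it was 0.17 (-2.39 to 2.73). miR-96 had 10 and 79 reads in its 5p entries and 2 and 12 in its single 3p entry. The 3p minus 5p difference was -0.60 (-2.77 to 1.57), so no difference between its arms was detectable at this depth.

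The 3p part was also taken of the reads of the same member whose entry names an arm. For miR-183-3p it was 6.35% (3.25 to 12.0) in the control library and 21.7% (17.7 to 26.2) in the blastema library. For miR-182-3p these values were 1.79% (0.32 to 9.45) and 10.9% (7.72 to 15.1), and for miR-96-3p 16.7% (4.70 to 44.8) and 13.2% (7.71 to 21.6). The interval of the blastema lay above that of the control for miR-183 only, and the intervals of miR-182 and miR-96 overlapped. However, 2 of the 4 entries of miR-183-3p and 2 of the 3 of miR-182-3p had no control read. The entries of miR-183-3p had at most 5 control reads and those of miR-182-3p at most 1, so all were listed only with their blastema reads. Such entries raise the 3p part of the blastema, which the intervals do not cover. The parts without them were not computed. When entries with no arm were counted as 5p, the part of miR-183-3p went from 1.82% to 8.04%.

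**Figure D5:**
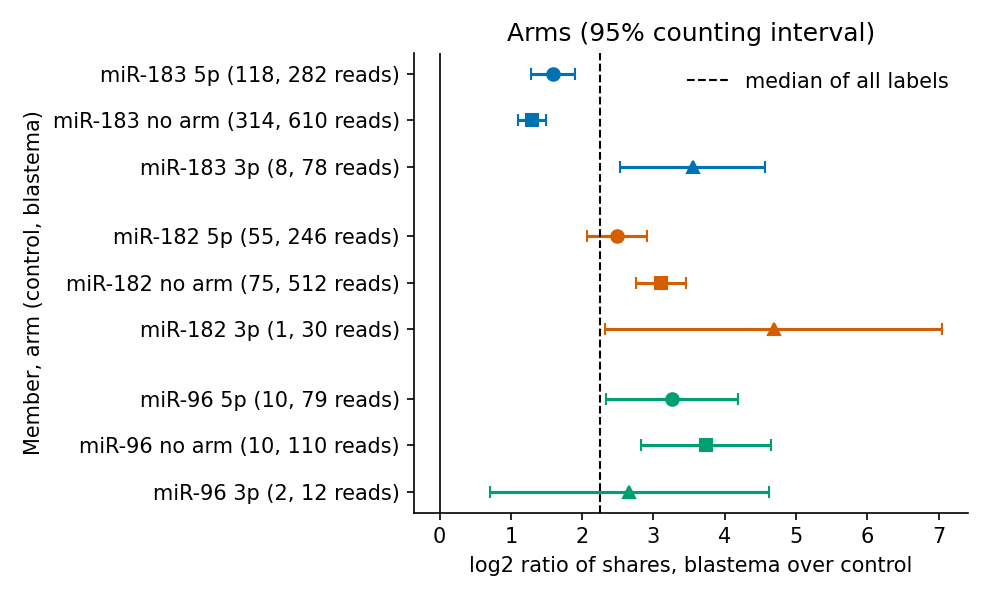
Log2 ratio of shares, blastema over control (horizontal axis), for the entries of each member named 5p, with no arm or 3p, with 95% counting intervals and the reads of control and blastema in the labels. miR-183-3p (3.55) lies to the right of the dashed median of the known labels, while miR-183-5p (1.60) and the entries of miR-183 with no arm (1.30) lie to its left and reverse with TMM.

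Other microRNAs that mark the tissues of a tail were read from fixed lists, as a setting for the members. Each microRNA of these lists, labels with a letter summed, had reads in both libraries. Labels of the same number may share reads, so counts of labels below are not counts of independent microRNAs. The sensory and neural list (miR-124, miR-9, miR-7, miR-128, miR-132, miR-138, miR-204, miR-211 and miR-218) summed to 1347 RPM in the control and 3546 RPM in the blastema. Of its 26 labels with at least 10 reads, 21 (80.8%) were 2-fold or more higher in the blastema, near the 84.3% of all labels, and 0 were 2-fold or more lower. The median log2 ratio was 1.85, 9 labels lay above the median of all labels, and 11 of the 26 stayed above 0 with TMM, against 52.7% of all labels. The neuronal miR-124 had 5017 control and 12965 blastema reads (log2 ratio 1.71), miR-9a, of neural progenitors and neurons, 2147 and 4932 (1.54), and miR-128, also enriched in neurons, 4193 and 4943 (0.58). These 3, the labels of the list with the most reads, lay below the median of the labels, and each fell below 0 with TMM. They do not stand for the whole list, of whose 26 labels 9 lay above that median.

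The epithelial list (miR-200, miR-141, miR-429, miR-203 and miR-205) summed to 2214 RPM in the control and 24314 RPM in the blastema. All of its 14 labels, which belong to 5 microRNAs, were at least 2-fold higher, against 84.3% of all labels. All lay above the median of the known labels. The list had a median log2 ratio of 3.39, and the 14 labels stayed above 0 with TMM, against 52.7% of all labels. miR-203, an epidermal microRNA, had 10885 control and 88095 blastema reads (3.36), miR-203a 4892 and 39624 (3.36), and miR-200a, which is found in epithelia, 3339 and 33856 (3.68).

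The leukocyte and blood list (miR-142, miR-223, miR-150, miR-155, miR-451 and miR-144) went from 272.2 to 2707 RPM. All 9 of its labels with at least 10 reads were at least 2-fold higher, which is near the background of 84.3%. Their median log2 ratio was 3.08, and miR-142 (1899 and 12707 reads, 3.08), miR-223 (531 and 7579, 4.18) and miR-142b (481 and 2727, 2.84) had the most reads. With TMM 6 of the 9 stayed above 0, against 52.7% of all labels. In the muscle list, 14 of 16 labels, which belong to 5 microRNAs, were at least 2-fold lower in the blastema, against 1.84% of all labels. The labels miR-208 (log2 ratio 0.65) and miR-208b (-0.0089) were not, and together they had 85 control and 74 blastema reads. With TMM all 16 labels fell below 0. The median log2 ratio of the list was -1.88, and miR-1 (-2.31), miR-206 (-2.04) and miR-1b (-2.23) had the most reads. Whether a change in tissue make-up played a part in these values or in those of the members was not tested. In pooled tissue, fewer cells of a type and less RNA per cell cannot be told apart.

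Among the known labels with at least 1000 reads, those with the log2 ratio nearest to each member were found over the 2 libraries. For miR-183 these were miR-10b (1.47), miR-9b (1.49) and miR-139 (1.46). The nearest to miR-182 were miR-27a (2.93), miR-23a (2.94) and miR-2184 (2.95), and those nearest to miR-96 were miR-196 (3.31), miR-203 (3.36) and miR-203a (3.36). The sum of the members was nearest to miR-143 (2.07), miR-1902 (2.05) and miR-191a (2.08). With a single ratio per label, such a likeness describes these libraries and no more.

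Unmapped sequences were also searched for relatives of the members through the partial homologies that the authors listed. Of the 7785 families of unmapped sequences, 1588 list a partial homology to a known microRNA, and 0 of these name miR-183, miR-96 or miR-182. The reads of the members are thus, as far as this annotation shows, those of the known entries.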

How the data were processed

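Small RNA of 1 control and 1 blastema library was sequenced by the authors, trimmed, and mapped to mirBase 21 with Bowtie 1.1.2, allowing up to 2 mismatches. By the study's account the mapped reads had a narrow range of lengths, so reads of other lengths are not in the mapped counts. The effect of this on the levels of different members was not tested. The deposited counts are reads per mirBase entry or unmapped sequence, without normalization. The deposited normalized values, a score whose method is not given in the sources used here, and the authors' deposited log2 values and log2 fold changes were not used. Family counts of unmapped sequences were deposited as sums over their sequences.

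Counts were summed per label and per arm, the arm being read from the entry's name. Shares have Wilson 95% intervals. Log2 ratios used 0.5 added read and Poisson intervals. A control count of 0 was replaced by 3 counts for a fold that leaves out the counting error of the blastema reads. Both depths (12613931 and 9952885 reads) leave members with few reads imprecise. Alternatives were 4 scalings, 5 added reads, the entry with the most reads, and other minimums and folds. Restriction to vertebrate entries, to 5p and no-arm entries, or to entries with a control read was added after seeing the data. The members and lists were chosen with earlier results of these data known. Named are all member labels, member entries with at least 100 reads, the 3 most abundant labels of each list and the 3 labels nearest to each member in log2 ratio. Calculations were tested on simulated data. TMM factors came from edgeR 4.0.16 in R 4.3.3, and the other steps ran in Python 3.11.15 with SciPy 1.17.1, NumPy 2.4.6 and pandas 2.3.3, and Matplotlib 3.10.9 drew the plots.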

Additional observations from a re-analysis of the deposited data

How the results depend on the processing

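Relative to the deposited total, the other totals add the same amount to every log2 ratio: -0.62 for the sequencing depth stated by the study, 0.19 for known reads only, -1.39 without the muscle microRNAs and -2.14 with TMM. For the sum of the members the log2 ratio was thus 1.44, 2.26, 0.67 and -0.072. For miR-183 it was 0.86, 1.67, 0.087 and -0.66. The values of miR-182 were 2.29 with the stated depth, 1.52 without the muscle microRNAs and 0.77 with TMM, and those of miR-96 were 1.94 without the muscle microRNAs and 1.19 with TMM. With TMM the entries of miR-183 named 5p (-0.54) and those with no arm (-0.84) reversed, and the latter also without the muscle microRNAs (-0.10). miR-124 (-0.43), miR-9a (-0.60) and miR-128 (-1.56) reversed with TMM, and miR-128 also with the stated depth (-0.041) and without the muscle microRNAs (-0.81). Of the 3090 known labels with at least 10 reads, 2605 were at least 2-fold higher, 834 with TMM and 1442 without the muscle microRNAs. Among labels with at least 100 reads it was 444 of 518. Of the 3090, 57 were at least 2-fold lower, 90 with the stated depth, 558 with TMM and 236 without the muscle microRNAs, and 17 were at least 4-fold lower. At least 2-fold lower were 18 of the 518 labels with at least 100 reads, and 103 of all 4563 when no minimum was set.

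With the entry with the most reads in place of the member, the log2 ratio was 1.87 for the sum and 1.10 for miR-183, and the parts of miR-183, miR-182 and miR-96 in the blastema were 42.5%, 42.5% and 15.0%. With vertebrate entries only, the part of miR-182 in the blastema was 43.0%. The cause of these differences was not tested. The 3 differences between members kept their direction and stayed within their intervals under every alternative run for them. Restriction to entries with a control read leaves in entries that were listed only with their blastema reads. Alternatives that add the reads of unmapped families with a homology to a member gave no value, since there were 0 such families. No paired analysis was possible because each condition had 1 library. The few control reads of miR-96 (22), miR-182c (2), miR-96-3p (2) and miR-182-3p (1), and the 0 control reads of miR-96a and miR-96b, limit what their ratios show.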

Other observations

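The entries of the members came from 41 species prefixes, which were grouped by kind of animal after the data were seen. Mammals gave 47 of the 96 entries, with 311 control and 988 blastema reads and a log2 ratio of 2.01 (1.82 to 2.19), and fishes gave 26 entries with 142 and 510 reads and 2.18 (1.91 to 2.45). The frog Xenopus tropicalis, the only amphibian among these prefixes, gave 4 entries with 16 control and 42 blastema reads, 1.71 (0.89 to 2.53). Its miR-183 entry had 12 control and 19 blastema reads, its miR-182-5p entry 3 and 10, its miR-182-3p entry 0 and 8 and its miR-96 entry 1 and 5. With TMM, which adds -2.14, the values of mammals and the frog fall below 0, so their direction depends on the scaling. In mammals the log2 ratio was 2.98 (2.61 to 3.34) for miR-182 and 1.34 (1.11 to 1.57) for miR-183, and in fishes 2.82 (2.30 to 3.33) and 1.70 (1.37 to 2.03), and those of miR-183 also fall below 0 with TMM. In the frog it was 2.74 (1.10 to 4.39) and 0.98 (-0.041 to 2.01), intervals that overlap. Of the fish entries, 3 of the 10 of miR-182 and 2 of the 11 of miR-183 had no control read and were listed only through their blastema reads. The same holds for 1 of the 2 frog entries of miR-182. Entries with fewer than 6 control reads also needed their blastema reads to be listed. Such entries raise these ratios, and values of the groups without them were not computed. The groups may also share reads, so they are not independent of each other. With up to 2 mismatches allowed, an entry of another species can collect reads of an axolotl microRNA, and a prefix does not tell which species' sequence was present.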
